A study of Mus musculus with 22 samples.

Results

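The epidermal growth factor (EGF) family was followed here through 8 genes of the mouse hypothalamus: the ligands Hbegf, Tgfa, Nrg1, Nrg2 and Nrg3 and the receptors Egfr, Erbb3 and Erbb4. They were taken by symbol, and all 8 were found among the 20668 genes counted in nuclei and the 16304 genes counted in whole cells. The 22 animals were male ob/ob mice, which lack leptin and are obese and diabetic, aged 11 weeks by the labels. Each received a single intracerebroventricular (icv) injection of 3 µg of recombinant human fibroblast growth factor 1 (FGF1) or of vehicle, and the food of vehicle mice was matched to that eaten by FGF1 mice (pair-feeding). Nuclei were sequenced from 3 mice per treatment on Day 1 and 2 per treatment on Day 5, and whole cells on Day 5 from 6 other mice per treatment. All groups carried the ob/ob mutation, so no mouse with leptin was compared. The nuclei and whole-cell cohorts came from different suppliers and were fed different chows. Tissue for whole cells was also cut down further, to the mediobasal hypothalamus. Each mouse was 1 library and 1 replicate.

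EGF family ligands are made as precursors anchored in the membrane, and metalloproteases shed most of them from the cell surface. Heparin-binding EGF-like growth factor (Hbegf) and transforming growth factor alpha (Tgfa) bind the receptor tyrosine kinase EGFR, and HB-EGF also binds ErbB4. Neuregulins bind ErbB3 or ErbB4, which signal in pairs with other ErbB receptors, and the pairs activate the MAPK and PI3K pathways. In the hypothalamus, Tgfa with Egfr and neuregulins with Erbb4 are known as signals between glia, and between glia and neurons, including tanycytes, the elongated glia that line the floor of the third ventricle.

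The nuclei held 24965 barcodes with 2721087 to 16345981 unique molecular identifiers (UMIs) per mouse, and the whole cells held 54890 barcodes with 2652897 to 11866269 UMIs per mouse. Nuclei carried the authors' cell types, of which the astrocyte, ependymal, vascular leptomeningeal (VLMC) and endothelial labels led in all 6 of their markers. The tanycyte label led in 4 of 6 tanycyte markers, and the label for committed oligodendrocyte precursors (COP) led in 4 of 6 COP markers and 2 of 6 markers of oligodendrocyte precursors (OPC). Neuron marker RNA was high in the nuclei labelled oligodendrocytes, microglia and COP, with medians of 144, 148 and 115 UMIs per 10000, against 10.8 in astrocytes and 170 in unmapped neurons (neurons that the study did not assign to a known type). Neurons had been removed from the whole cells by the authors, so neuronal members were read in nuclei only.

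The 2 assays gave some members very different levels. Nuclei counts include introns, and Nrg1, Nrg3 and Erbb4 span 1069479, 1104137 and 1075874 bases, of which 0.968%, 0.617% and 1.15% are exonic. In astrocytes of vehicle mice, Nrg1 stood at 1118 ± 201 UMIs per 1000000 (CPM; SD, n = 5) in nuclei and 1.30 ± 1.11 CPM (n = 6) in whole cells, Nrg3 at 1318 ± 701 and 1.86 ± 0.957 CPM, and Erbb4 at 1268 ± 499 and 30.9 ± 5.34 CPM. The short ligand gene Hbegf, of 10879 bases and 44.4% exonic, stood at 11.2 ± 4.32 and 46.4 ± 8.05 CPM, and Tgfa at 14.4 ± 7.58 and 10.9 ± 3.45 CPM. The tables of the 2 assays were counted and scaled separately, so these pairs are set side by side and not tested.

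In GRCm38 with the GENCODE vM21 annotation, Hbegf lies on chromosome 18 from 36504927 to 36515805 and Nrg2 on the same chromosome from 36017652 to 36197380, both on the minus strand. Tgfa lies on chromosome 6 from 86195223 to 86275719 on the plus strand. Nrg1 lies on chromosome 8 from 31814551 to 32884029 and Nrg3 on chromosome 14 from 38368952 to 39473088, both on the minus strand. The receptor genes are Egfr on chromosome 11 from 16752203 to 16918158 on the plus strand, Erbb3 on chromosome 10 from 128567523 to 128589652 and Erbb4 on chromosome 1 from 68032186 to 69108059, the last 2 on the minus strand. Antisense genes lie within Nrg3, of which Nrg3os held 54014 and Gm20642 held 19887 nuclear UMIs beside 378362 of Nrg3 itself. Whether reads were counted by strand is not given in the sources used here, so Nrg3 is uncertain to that extent.

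In vehicle mice the members were spread over different cell types, read here as CPM without further scaling. Among nuclei, Nrg1, a neuregulin made by neurons and other cells, was highest in the neuron type n16, with 8101, 5368, 11393, 8420 and 7539 CPM in the 5 vehicle mice. All 5 mice exceeded those of the next type, GABA14, whose mean was 3473 CPM. Nrg3, the neuregulin most restricted to the nervous system, was highest in the Nr5a1 neurons (n29) at 6421 ± 824 CPM (SD, n = 5), but its range overlapped that of Glu6 neurons at 6354 CPM. Nrg2 was highest in n20 neurons, at 171 and 140 CPM in 2 mice, which rested on 9 UMIs each.

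Egfr and Erbb4, the receptors with the most UMIs in typed nuclei (957 and 86499), were highest in different types. Egfr, the receptor of Hbegf and Tgfa, was highest in VLMC nuclei at 137, 146 and 342 CPM, then in astrocytes at 73.1, 68.0, 105, 77.2 and 69.1 CPM, and neither range overlapped that of the next type down. Erbb4, a neuregulin receptor, was highest in n31 neurons at 3166 and 4528 CPM in 2 mice and stood in COP nuclei at a mean of 1661 CPM. Erbb3, which has little kinase activity of its own and signals through its partner, had 156 UMIs in all typed nuclei and was tested in none of them. Tgfa was highest in COP nuclei at 40.9, 38.3, 32.4, 5.24 and 59.9 CPM, a range that overlapped that of n16 neurons at 34.0 CPM. Hbegf was highest in n19 neurons at 71.7 and 0 CPM in 2 mice, which rested on 2 UMIs in all, and stood at 11.2 ± 4.32 CPM (SD, n = 5) in astrocytes.

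Whole cells of vehicle mice placed Tgfa in the oligodendrocyte lineage, at 153 ± 15.6 CPM (SD, n = 6) in OPC, 152 in COP and 99.04 ± 9.51 in oligodendrocytes, the last apart from the 58.1 CPM of endothelial cells. Egfr was highest in astrocytes at 49.6 ± 3.24 CPM, above all mice of every other type. Erbb3 was highest in OPC at 61.3 ± 9.76 CPM and oligodendrocytes at 49.0 ± 9.53 CPM, followed by macrophages at 15.1 CPM. Erbb4 was highest in OPC at 72.7 ± 12.1 CPM, followed by COP at 36.8, oligodendrocytes at 35.3 (median 30.1, with replicate 27 at 70.2), macrophages at 34.8 and astrocytes at 30.9 CPM. Each range overlapped that of the next type, and all OPC values lay above those of macrophages and astrocytes. Hbegf was highest in endothelial cells at 117 ± 30.2 CPM, close to COP at 104 CPM. Nrg1 and Nrg3 reached 23.8 ± 2.56 and 11.3 ± 4.27 CPM in OPC, and Nrg2, with 14 UMIs in all whole cells, did not exceed 1.03 CPM in any type. These 3 neuregulins passed the filter on low counts in no whole-cell type and were not tested there.

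**Figure D1:**
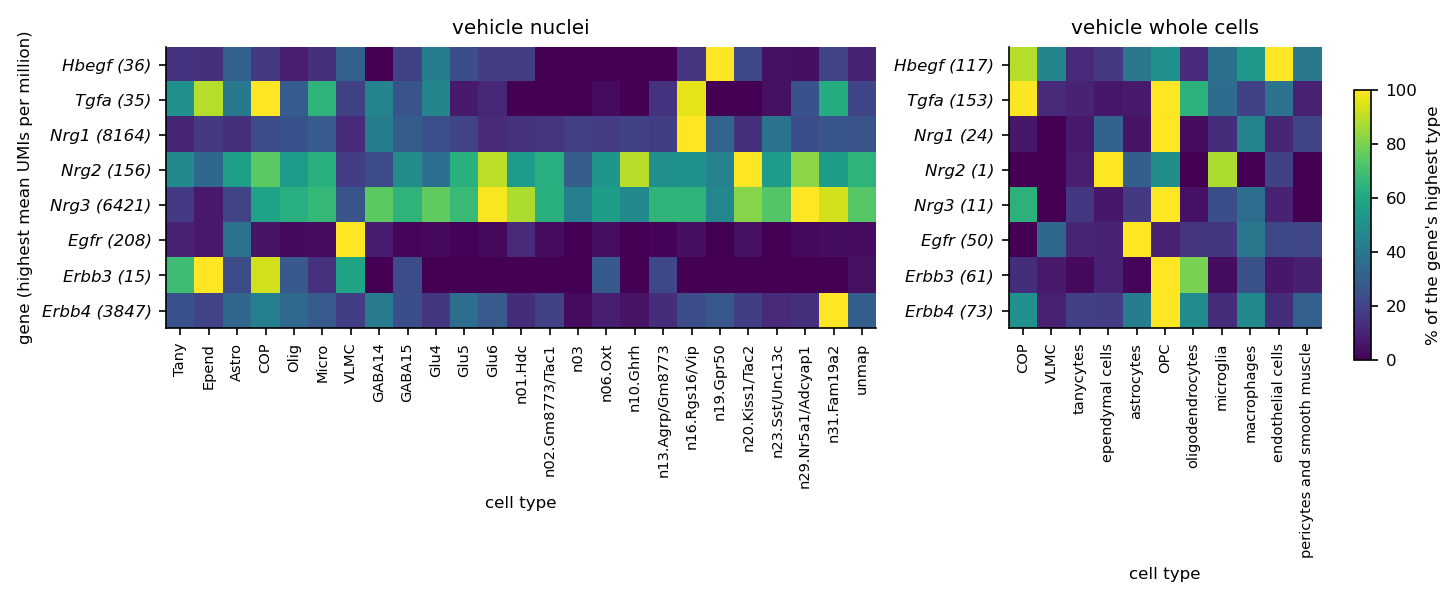
Mean level of each member per cell type in vehicle mice, with nuclei and whole cells in separate panels. Each row is scaled to its own highest type, which is printed in CPM, so rows compare cell types and not genes. In nuclei, Nrg1 and Nrg3 peak in neuron types and Egfr in VLMC and astrocytes. In whole cells, which hold no neurons, Nrg1, Nrg3, Tgfa and Erbb3 peak in the oligodendrocyte lineage and Egfr in astrocytes.

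The first comparison asked which members differed between FGF1 and vehicle mice on Day 1, from counts summed per mouse and cell type. Hbegf was higher in FGF1 mice in tanycytes, ependymal cells (the ciliated cells that line the ventricle) and astrocytes, where vehicle mice had at most 14.8 CPM and FGF1 mice at least 88.6 CPM. No other member passed the test in any type. Of 74 pairs of member and cell type tested over 18 types, 3 were called higher and 0 lower. Over all pairs of gene and type, 1.05% were called in either direction and 0.653% higher. The 3 calls were Hbegf, which passed the filter on low counts in these types through the FGF1 mice, so their share is no support. An unadjusted p below 0.05 was reached by 11 of the 74 pairs, and DESeq2 called 4 pairs. The share of all pairs with an unadjusted p below 0.05 is not given here, nor for the later comparisons.

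In tanycytes, TMM-scaled Hbegf stood at 412, 177 and 126 CPM in FGF1 mice and at 6.85, 0 and 13.3 CPM in vehicle mice, with 87 vehicle nuclei behind the latter. Every FGF1 mouse lay above every vehicle mouse, as for 14.7% of the genes tested in tanycytes, and FGF1 replicate 1 was the highest. The fitted log2 fold change was 5.32 ± 0.78 (SE; edgeR FDR 0.00166), where 5.38% of the genes tested in tanycytes were called higher. Because the vehicle group held 2 UMIs against 185, the size of that fold depends on the prior count, and the ratio of the pooled UMI rates was 56.8 with an exact 95% interval of 15.5 to 472.5 (counting error only).

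Ependymal nuclei gave 426, 244 and 284 CPM of Hbegf in FGF1 mice and 0, 0 and 14.8 CPM in vehicle mice. The groups again did not overlap, as for 17.3% of the genes tested there, and a single UMI made up the whole vehicle signal against 65 UMIs in FGF1 mice. The fitted log2 fold change was 5.53 ± 0.71 (edgeR FDR 5.15e-05), with 10.2% of the genes tested there called higher, and the ratio of UMI rates was 60.6 (exact 95% interval 10.5 to 2429).

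In astrocytes, Hbegf stood at 315, 164 and 88.6 CPM in FGF1 mice and at 13.5, 13.7 and 5.70 CPM in vehicle mice. The lowest FGF1 mouse was above the highest vehicle mouse, as for 9.04% of the genes tested in astrocytes. The fold was 16.0 (log2 4.0 ± 0.62, edgeR FDR 0.0108, 410 against 12 UMIs), with 1.39% of the genes tested in astrocytes called higher. Without vehicle replicate 1 or without vehicle replicate 2 the astrocyte value was log2 4.11 or 4.32 and the FDR 0.104 in each case, so the call was lost without either mouse, while it held in the other 4 fits with a mouse left out.

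**Figure D2:**
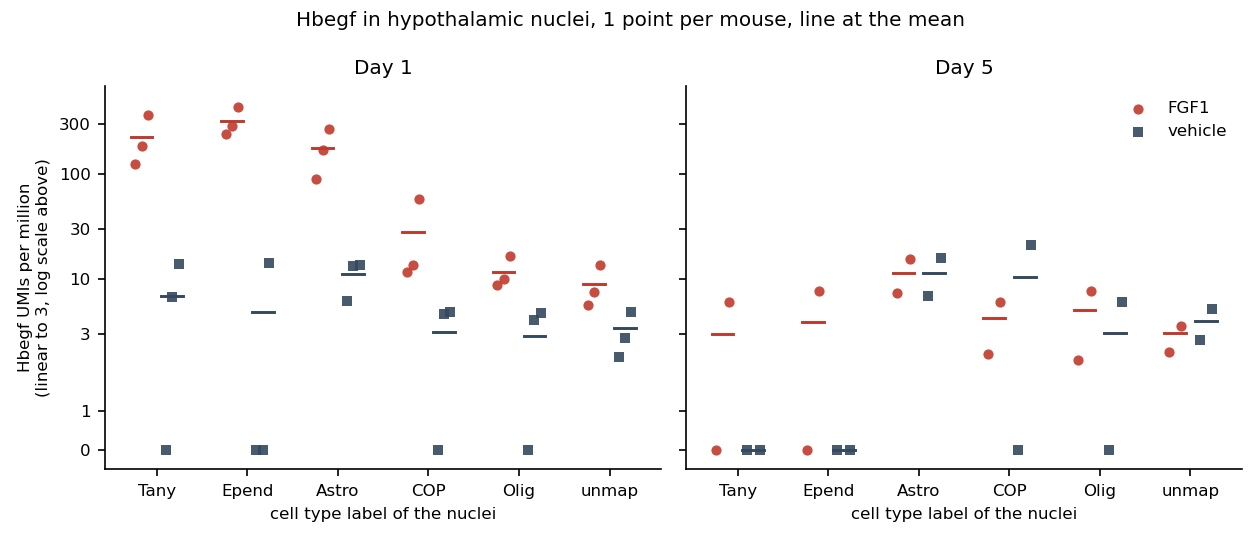
Hbegf per mouse in nuclei of 6 labels (tanycytes, ependymal cells, astrocytes, COP, oligodendrocytes and unmapped neurons), as CPM without TMM scaling on an axis that is linear up to 3 and logarithmic above, for Day 1 (left) and Day 5 (right). Each point is a mouse (circles FGF1, squares vehicle) and lines are group means. On Day 1 the FGF1 mice lie above the vehicle mice in every label drawn. COP and oligodendrocytes, with 17 against 2 and 14 against 4 UMIs, were not tested, and the share of all genes without overlap is not given there. Unmapped neurons were tested and not called. Types not drawn that could be fitted without the filter on low counts ran from log2 0.22 (Glu4) to 3.74 (n06), without a call. On Day 5 no mouse exceeds 15.7 in tanycytes, ependymal cells or astrocytes.

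The same difference was seen as a share of nuclei. On Day 1, 51.9% of tanycyte, 61.0% of ependymal and 43.0% of astrocyte nuclei of FGF1 mice had at least 1 Hbegf UMI, against 2.30%, 2.13% and 4.0% in vehicle mice. With every nucleus thinned to 1000 UMIs the shares were 25.7%, 27.1% and 22.6% against 1.15%, 2.13% and 0.8%. Unmapped neurons gave 2.72% against 1.35%, and 1.06% against 0.326% after thinning. Free RNA was not measured, and its part in these shares was not tested. These shares pooled nuclei over mice. FGF1 replicate 1 held 119 of 187 tanycyte and 388 of 553 astrocyte nuclei of its group. By mouse, tanycyte shares were 57.98%, 46.51% and 32% in FGF1 mice and at most 5% in vehicle mice. Astrocyte shares were 48.2%, 35.4% and 21.15% against at most 5.26%. After thinning, FGF1 mice gave 29.41%, 25.58% and 8% in tanycytes and 27.06%, 15.04% and 5.77% in astrocytes. Vehicle mice then gave at most 3.125% and 1.35%. The median UMI count per tanycyte nucleus was 2298 to 2846 in FGF1 mice, lower than the 3383.5 to 3799 of vehicle mice.

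Hbegf passed the filter on low counts in 4 of the 18 types, and in these glial types it passed through the FGF1 mice. The remaining tested type was the unmapped neurons, at 13.7, 7.55 and 5.67 CPM against 2.48, 4.59 and 2.81 CPM. These groups did not overlap, as for 6.31% of genes tested in that type, and the difference did not pass (log2 1.43 ± 0.46, edgeR FDR 0.632). In COP nuclei, which were not tested, FGF1 mice held 17 UMIs, 12 of them in replicate 1, and vehicle mice 2. The ratio of the pooled UMI rates was 9.0, with an exact 95% interval of 2.14 to 80.3 (counting error only). Oligodendrocyte nuclei, also untested, held 14 and 4 UMIs, with values of 8.86, 16.5 and 10.1 CPM against 0, 4.53 and 3.98 CPM. Without the filter on low counts, Hbegf was not called in COP (log2 3.0, edgeR FDR 0.304) or oligodendrocyte nuclei (log2 1.89, edgeR FDR 0.7997).

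Library quality and other cell type markers moved with some of these groups. In FGF1 replicate 1, 82.4% of tanycyte and 72.7% of astrocyte nuclei exceeded the study's 5% limit of mitochondrial or ribosomal UMIs, and in vehicle replicate 2 58.8% of astrocyte nuclei did. Without FGF1 replicate 1, Hbegf in tanycytes had a log2 fold change of 4.58 (ependymal cells 5.30 and astrocytes 3.36), and without the barcodes over the limit 4.69, 5.52 and 3.57, each still called. The metadata place 1 FGF1 and 1 vehicle mouse in each batch, and with batch as a covariate the values were 5.05, 5.57 and 3.73, again all called.

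In tanycyte nuclei of FGF1 mice the summed astrocyte markers were lower (1676 to 2174 against 3996 to 5390 CPM), as were ependymal markers (75.6 to 166 against 403 to 720 CPM) and oligodendrocyte markers (253 to 326 against 561 to 686 CPM), without overlap. The tanycyte markers themselves stood at 635 to 970 against 967 to 1458 CPM, ranges that met. In ependymal nuclei the ependymal markers were lower, at 1240 to 1866 against 3280 to 4965 CPM, and neuron markers higher, at 2691 to 5841 against 2210 to 2578 CPM. Also lower there without overlap were the astrocyte markers (538 to 1271 against 2722 to 3119 CPM), the tanycyte markers (107 to 233 against 258 to 505 CPM) and the oligodendrocyte markers (144 to 367 against 474 to 775 CPM). In astrocyte nuclei the COP markers were higher, at 260 to 407 against 207 to 253 CPM, and the other marker sums overlapped. The microglial marker Tmem119 was at 0 in both tanycytes and ependymal cells. The summed microglial markers were not, at 53.2 to 139 against 70.1 to 121 CPM in tanycytes. In ependymal cells they stood at 73.5 to 161 against 76.4 to 143 CPM. Only 5 of the 6 macrophage markers were among the genes counted in nuclei, so Pf4 was not measured there. The part of these marker sums in the Hbegf difference was not tested.

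Tgfa, the other Egfr ligand, was tested in astrocytes and unmapped neurons on Day 1 and did not pass in either. In astrocyte nuclei it stood at 40.6, 37.9 and 53.2 CPM in FGF1 mice and 18.1, 5.14 and 22.8 CPM in vehicle mice, so the groups did not overlap, again beside that 9.04% of genes. The log2 fold change was 1.72 ± 0.60 (edgeR FDR 0.282, 67 against 11 UMIs). In tanycytes, ependymal cells and oligodendrocytes Tgfa fell below the filter on low counts, with 23 against 5, 29 against 6 and 42 against 10 UMIs. In ependymal nuclei the FGF1 values of 206, 85.5 and 142 CPM lay above the vehicle values of 32.3, 47.8 and 14.8 CPM, beside 17.3% of the genes tested there. Without the filter, Tgfa was called in ependymal cells (log2 2.12, edgeR FDR 0.0323) and in oligodendrocytes (log2 2.21, edgeR FDR 0.0411), and not in tanycytes (1.63, edgeR FDR 0.351), COP (0.50, edgeR FDR 0.823) or microglia (-0.34, edgeR FDR 0.967). The share of all genes called without the filter is not given here.

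The neuregulins and Erbb4 were tested in more types than Hbegf and Tgfa, Egfr in few and Erbb3 in none, and no call was made. Nrg1 was tested in 18 types with log2 fold changes from -0.77 to 0.68, Nrg3 in 18 types from -1.0 to 1.05, Nrg2 in 11 types from -0.22 to 0.92, Erbb4 in 18 types from -0.84 to 0.49 and Egfr in 3 types from -0.32 to 0.29. In the types where Nrg1 and Nrg3 were highest, n16 and n29 neurons, the Day 1 values were -0.06 (edgeR FDR 0.997) and 0.47 (edgeR FDR 0.533). Egfr stood at log2 0.01 in VLMC and 0.29 in astrocytes (edgeR FDR 0.970 in astrocytes).

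A few of these pairs were singled out after their values were seen. In Agrp neurons (n13), which drive feeding, Nrg3 stood at 8172, 9430 and 9274 CPM in FGF1 mice and 4537, 3652 and 4745 CPM in vehicle mice. All FGF1 mice were higher, as for 8.77% of genes tested in that type. The log2 fold change of 1.05 ± 0.26 did not pass in edgeR (FDR 0.110) and passed in DESeq2 (FDR 0.0329), and the overlap with antisense genes applies. Nrg1 in the same neurons had a log2 fold change of -0.74 (edgeR FDR 0.381).

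In ependymal nuclei Erbb4 stood at 308, 488 and 533 CPM in FGF1 mice and at 1050, 558 and 844 CPM in vehicle mice. The FGF1 mice were all lower, as for 19.0% of the genes tested there. The log2 fold change of -0.84 ± 0.31 did not pass (edgeR FDR 0.0689), and without vehicle replicate 2 it was -1.07 (edgeR FDR 0.0414). Nrg1 in ependymal nuclei, at 587, 952 and 907 CPM against 1212, 1131 and 1865 CPM, also lay lower in every FGF1 mouse without passing (log2 -0.75, edgeR FDR 0.122).

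**Figure D3:**
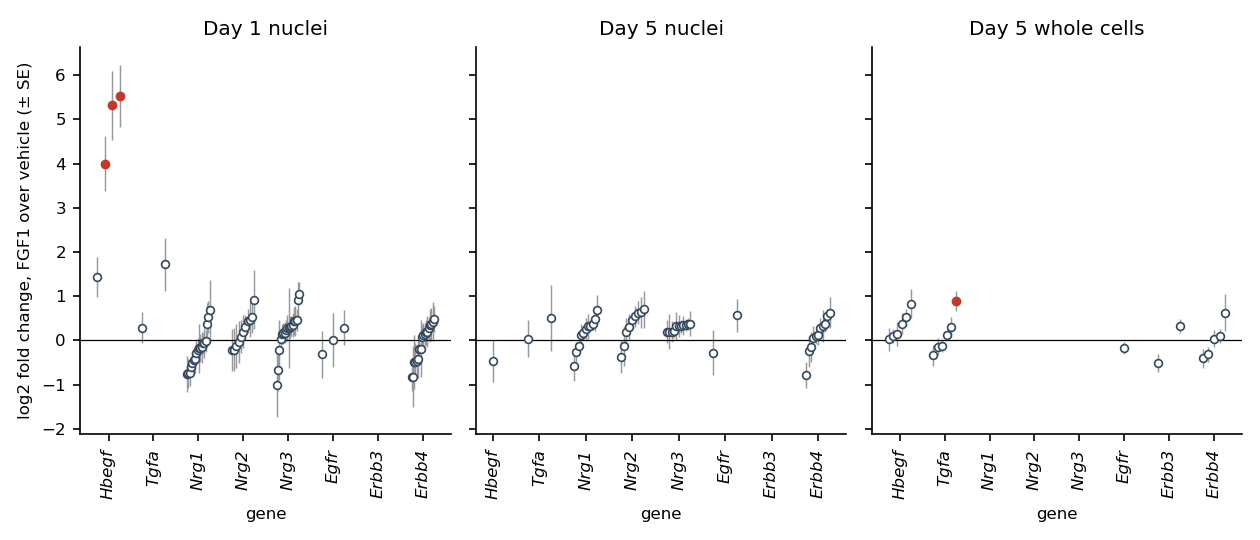
Log2 fold change of FGF1 over vehicle (vertical axis, bars are ± SE) for each member in every cell type tested, in Day 1 nuclei, Day 5 nuclei and Day 5 whole cells. Each point is a cell type, sorted by value within a gene, and the filled points, which passed an edgeR FDR below 0.05, are Hbegf in astrocytes, tanycytes and ependymal cells on Day 1 (4.0, 5.32 and 5.53) and Tgfa in whole-cell astrocytes (0.89).

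On Day 5 no member was called in nuclei. Of 47 pairs over 11 types, 0 passed in edgeR, where 0.288% of all pairs of gene and type were called, and 0 in DESeq2. An unadjusted p below 0.05 was reached by 9 of the 47 pairs. There were 2 mice in each group, and tanycytes and ependymal cells had too few vehicle nuclei to be tested. Hbegf in tanycyte nuclei was 0 and 5.99 CPM in FGF1 mice, from 34 and 107 nuclei, and 0 and 0 CPM in vehicle mice, from 9 and 14 nuclei. Ependymal nuclei held 0 and 7.72 CPM in FGF1 mice and 0 and 0 CPM in vehicle mice. In astrocytes Hbegf stood at 7.39 and 15.3 CPM in FGF1 mice and at 15.7 and 6.91 CPM in vehicle mice. The Day 5 astrocyte groups overlapped, and all 4 mice were far below the FGF1 mice of Day 1.

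Whether the response differed between days was tested in 11 types, with 53 pairs of member and type. None was called, 4 had an unadjusted p below 0.05, DESeq2 was not run on this contrast, and 0.00784% of all pairs were called. For Hbegf in astrocytes the Day 1 effect exceeded the Day 5 effect by log2 4.22 ± 0.96 (edgeR FDR 0.244), and in tanycytes and ependymal cells this could not be tested. Without the filter on low counts it was 4.27 and called (edgeR FDR 0.00141), and without the barcodes over the mitochondrial or ribosomal limit 2.42 and not called (edgeR FDR 0.663).

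Among Day 5 nuclei, Nr5a1 neurons (n29) were singled out after their values were seen, since all 4 members tested there lay higher in both FGF1 mice than in both vehicle mice. Erbb4 stood at 766 and 777 CPM in FGF1 mice and 572 and 458 CPM in vehicle mice (log2 0.55 ± 0.15, edgeR FDR 0.164). Nrg3 stood at 8660 and 7730 CPM against 6851 and 5694 CPM (log2 0.37 ± 0.13, edgeR FDR 0.346). With 2 mice a group, 20.8% of genes tested in this type lay higher without overlap. With batch as a covariate Erbb4 and Nrg3 passed (edgeR FDR 0.00419 and 0.00235). With 2 mice a group that fit leaves few degrees of freedom, and the share of all genes called in it is not given here. Without vehicle replicate 28 the log2 fold changes were 0.76 and 0.53, from a fit that left 1 vehicle mouse, assumed to vary like the FGF1 mice. In the other 3 fits with a mouse left out Erbb4 was at log2 0.44 to 0.58 and Nrg3 at 0.26 to 0.46. In the other 6 settings neither passed, with an edgeR FDR of 0.0753 or more for Erbb4 and 0.334 or more for Nrg3.

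Nrg3 lay above 0 on the log2 scale in 11 of 11 types on Day 5, with a median of 0.32, and in 15 of 18 types on Day 1, with a median of 0.28. As many or more types above 0 were found for 5.4% of the genes tested in all types on Day 5 and for 27.3% on Day 1. Nrg1 lay below 0 in 15 of 18 types on Day 1 and above 0 in 8 of 11 on Day 5, where 18.3% of genes had as few or fewer types above 0 on Day 1 and 46.0% as many or more on Day 5. The types come from the same mice and are not replicates.

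In whole cells on Day 5, Tgfa in astrocytes was called higher in FGF1 mice, and it was the only member called. Of 20 pairs tested over 11 types, 1 was called higher and 0 lower in edgeR, beside 4.17% of all pairs called and 2.07% called higher. DESeq2 also called 1, and 4 of the 20 pairs had an unadjusted p below 0.05. The lowest, median and highest FGF1 mouse had 17.6, 20.4 and 35.0 CPM of Tgfa, against 5.53, 11.7 and 14.6 CPM in vehicle mice. The 6 FGF1 mice all lay above the 6 vehicle mice, as for 3.31% of the genes tested in astrocytes. The means were 23.6 ± 7.32 and 11.2 ± 3.47 CPM (SD, n = 6), the log2 fold change 0.89 ± 0.22 and the edgeR FDR 0.00766, from 140 and 118 UMIs, where 6.55% of the genes tested in astrocytes were called higher. Each of 6 batches held 1 mouse of each group, and with batch as a covariate the value was log2 0.85 (edgeR FDR 0.0168).

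The astrocytes of the 2 groups came mostly from different clusters, cluster 4 in FGF1 mice and cluster 1 in vehicle mice. Cluster 4 made up 75.8 ± 16.3% of astrocytes in FGF1 mice and 8.14 ± 5.39% in vehicle mice (SD, n = 6). Within cluster 4 Tgfa was 26.9 ± 6.95 CPM in FGF1 mice and 21.2 ± 19.8 CPM in vehicle mice, from 116 and 16 UMIs (log2 0.42 ± 0.41, edgeR FDR 0.869). Within cluster 1, which was not tested for Tgfa, it was 14.5 ± 9.41 and 10.2 ± 3.41 CPM, from 24 and 102 UMIs. A higher level per cell and a larger share of cluster 4 cells therefore cannot be told apart in the astrocyte total. Tanycyte markers in these astrocytes were higher in FGF1 mice (74.7 to 185 against 53.5 to 73.2 CPM), as were COP markers (281 to 336 against 236 to 266 CPM), while astrocyte markers overlapped, and their part in the Tgfa difference was not tested.

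**Figure D4:**
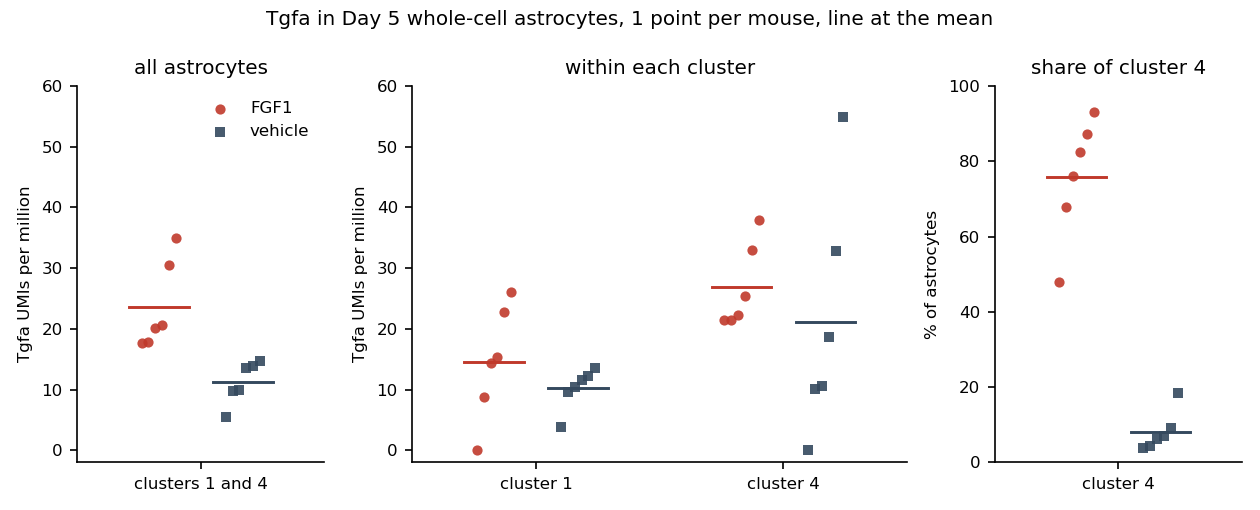
Tgfa per mouse in whole-cell astrocytes on Day 5, as TMM-scaled CPM over all astrocytes (left) and as CPM within clusters 1 and 4 (middle), and the percent of astrocytes in cluster 4 (right). Each point is 1 of 6 mice a group and lines are means, and the FGF1 mice all lie above the vehicle mice over all astrocytes (17.6 to 35.0 against 5.53 to 14.6) while the groups overlap within each cluster.

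In the lineage where Tgfa was highest it did not pass, with log2 fold changes of -0.13 in OPC, 0.30 in COP and 0.12 in oligodendrocytes. Hbegf lay above 0 in all 6 types tested, from 0.02 in oligodendrocytes to 0.83 in tanycytes, without a call. In tanycytes the lowest, median and highest FGF1 mouse had 18.8, 24.3 and 66.7 CPM of Hbegf against 6.42, 13.1 and 27.4 CPM in vehicle mice. These groups overlapped (log2 0.83 ± 0.33, edgeR FDR 0.173), and without vehicle replicate 35 the value was 1.14 (edgeR FDR 0.0324). In OPC Hbegf had 37.9, 93.0 and 97.4 CPM against 38.1, 57.8 and 81.8 CPM (log2 0.52 ± 0.20, edgeR FDR 0.138), and in endothelial cells, its highest type, log2 0.38 (edgeR FDR 0.544).

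Among the receptors, Egfr in astrocytes had 36.1, 46.5 and 51.7 CPM (lowest, median and highest FGF1 mouse) against 48.02, 50.04 and 55.91 CPM, which overlapped (log2 -0.17 ± 0.13, edgeR FDR 0.421). Without the filter on low counts Egfr was at log2 -1.62 in tanycytes and -1.93 in endothelial cells, not called (edgeR FDR 0.0584 and 0.0674). The other whole-cell types then had an edgeR FDR of 0.513 or more. Erbb3 in OPC had 30.3, 41.2 and 54.7 CPM against 46.9, 63.7 and 72.0 CPM. Most FGF1 mice were lower, with some overlap and no call (log2 -0.52 ± 0.20, edgeR FDR 0.131), and in oligodendrocytes the value was 0.32 (edgeR FDR 0.307). Erbb4 ranged from -0.41 in tanycytes to 0.63 in COP over 5 types. Taken cluster by cluster, 25 pairs over 16 clusters gave 0 calls in edgeR, where 1.75% of all pairs of gene and cluster were called. DESeq2 gave 0 calls, and 5 of the 25 pairs had an unadjusted p below 0.05.

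The other genes of the pathway were read from a list of 51 further ligands, sheddases, receptor inhibitors, adaptors, kinases and induced genes. The paper places MAPK-ERK signalling downstream of FGF receptors as well. The list holds kinases and induced genes of that route, so list calls on either day cannot separate EGF family signalling from FGF receptor signalling. Which receptors lay behind these calls was not tested. On Day 1, 4 of 21 tested were higher in tanycytes and 0 lower, where 5.38% of all genes tested were called higher. In astrocytes 5 of 26 were higher and 0 lower, beside 1.39% of all genes called higher. Among ependymal nuclei 1 of 5 was higher and 1 lower, beside 10.2% and 8.86% of all genes. The median log2 fold change of the list was 0.38 in tanycytes and 0.37 in astrocytes, against 0.03 and -0.01 for all genes tested there. These counts and medians cover tested genes only. With batch as a covariate the Day 1 list calls fell to 7, and which genes lost their call is not given here. Of 11 induced genes, 5 were tested in astrocytes, 4 in tanycytes and 1 in the ependymal type, and those near 0 in vehicle mice passed the filter on low counts through the FGF1 mice, so their share called is no support, and fitted folds against a vehicle group near 0 depend on the prior count. Ccnd1, a cyclin of the G1 phase, rose by log2 4.82 in tanycytes, by 5.27 in the ependymal type and by 3.32 in astrocytes (edgeR FDR 0.00319, 0.000102 and 0.0439). The transcription factor Jun rose by 4.54 in tanycytes and 5.01 in astrocytes (edgeR FDR 0.00449 and 0.0122), and Egr1, an immediate early gene, by 3.56 and 4.46 (edgeR FDR 0.00555 and 0.0135). Vehicle means were 2.33 CPM of Ccnd1, 6.74 of Jun and 11.3 of Egr1 in tanycytes, and 3.43, 3.58 and 4.18 CPM in astrocytes. Fos, another immediate early gene, rose by log2 2.41 in astrocytes (edgeR FDR 0.0325). Spry2, a feedback inhibitor of receptor tyrosine kinase signalling, rose in tanycytes (log2 2.25, edgeR FDR 0.00744). It also rose in astrocytes (log2 2.17, edgeR FDR 0.0386), outside the 4 largest changes there. The adaptor Gab1 fell by 1.23 on the log2 scale in ependymal cells (edgeR FDR 0.0349). Without the barcodes over the mitochondrial or ribosomal limit, Jun, Ccnd1 and Egr1 in tanycytes and Ccnd1 and Egr1 in astrocytes fell under the filter on low counts and were not tested. The other pairs stayed called, among them Jun in astrocytes at log2 5.61, Ccnd1 in ependymal cells at 5.30 and Spry2 in tanycytes at 2.10 (edgeR FDR 0.00213, 7.29e-05 and 0.00853).

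The Day 1 list also held the transcription factor Stat3, which rose in COP (log2 2.17, edgeR FDR 0.0393) and oligodendrocyte nuclei (log2 1.97, edgeR FDR 0.0177), the 1 list gene called in each, where 0.0892% and 0.167% of all genes were called higher. On Day 5 in whole-cell astrocytes, 5 of 39 list genes were higher and 3 lower, beside 6.55% and 6.06% of all genes, with a list median of -0.03 against -0.02 for all genes. The 5 higher were Akt2 (log2 0.66, edgeR FDR 0.00363), Mapk3 (0.53), Gab1 (0.50), Stat3 (0.47) and Nras (0.41), kinases, an adaptor and other effectors of the pathway, of which the last 4 were named after their values were seen. Of the 3 lower, Dusp6, a phosphatase that limits ERK activity, fell by 1.30 on the log2 scale (edgeR FDR 6.59e-06), as did Egr1 by 1.29 and Fos by 1.49 (edgeR FDR 0.0213 and 0.0357). Cluster 4 made up a mean of 75.8% of these astrocytes in FGF1 mice and 8.14% in vehicle mice. A change per cell and a change in cluster share therefore cannot be told apart in these calls. Vehicle means of Fos were 1542 CPM here and 19.2 CPM in Day 1 astrocyte nuclei, and the part of the assay was not tested. In OPC 3 of 27 rose and 0 fell, where 1.7% of all genes were called higher, namely Egr1 at log2 1.09, Ccnd1 at 0.54 and Fos at 0.52 (edgeR FDR 0.0212, 0.00754 and 0.0179). In tanycytes 1 of 39 rose, where 2.29% of all genes were called higher, Ccnd1 at log2 0.69 (edgeR FDR 0.0211), and ependymal cells, COP and oligodendrocytes had no call among 28, 21 and 34 list genes.

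The genes whose vehicle levels followed those of the members most closely over cell types are a description only, since all types share the same mice. Over 12 nuclear types, Nrg3 was closest to its antisense genes Gm20642 and Nrg3os and to Stxbp5l, Egfr to Itih3, Slc13a5 and Agt, and Nrg1 to Nos1ap, Rftn1 and Slc2a13. Erbb4 was closest to Cdh10, Pcmtd1 and Wscd1, Tgfa to Gm13219, Tesk2 and Tnni3k, and Nrg2 to Camkk2, Gm30382 and Gm42649. Over 11 whole-cell types, Tgfa was closest to Traf6, Pllp and Gltp, Hbegf to Gpcpd1, Ncbp3 and Trim25, and Egfr to St3gal4, Fgd6 and Chst1. Erbb3 was closest to Edil3, Rab31 and Sept8, Erbb4 to Ggt7, Rundc3a and Gpt2, and Nrg1 to Emc6, Uba6 and Atp2b1. The Pearson correlation of log2(CPM + 1) with the closest gene ranged from 0.884 (Tgfa) to 0.990 (Nrg3) in nuclei and from 0.872 (Erbb3) to 0.948 (Egfr) in whole cells.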

How the data were processed

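The authors aligned reads to GRCm38 with Cell Ranger 1.2, counted introns for nuclei, and deposited raw UMI counts per gene and barcode, with the percent of mitochondrial and ribosomal UMIs of whole cells, batches and clusters. They removed doublets (Scrublet) and neurons from the whole cells. No doublet caller was run on nuclei or here. Replicates are mice, and no pair of libraries agreed within sampling noise (lowest chi-square per degree of freedom 6.46). Barcode sequences shared by libraries numbered 318 of 24645 in nuclei and 1791 of 53065 in whole cells. The 660 nuclei annotated as filtered and 2 whole-cell clusters that the markers did not name were left out; the other clusters were named from marker genes and can differ from the study's names. UMIs of a cell type were added up within each mouse, with at least 10 cells a mouse and 2 mice a group, and tested with edgeR 4.0.16 in R 4.3.3 (filterByExpr, TMM, robust glmQLFit, glmQLFTest), called at a Benjamini-Hochberg FDR below 0.05 over all genes of that type. All edgeR p-values are two-sided. Simulated data served to check the script. DESeq2 1.42.0 and other settings were alternatives. Members got per-mouse values where called or at their highest vehicle type, and pathway genes where called, up to 4 a type. Members and lists were chosen with earlier results of these data known. Intervals of UMI ratios cover counting error only.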

Additional observations from a re-analysis of the deposited data

Results flagged for a closer look

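Among 40 groups of 6 mice examined for a single mouse far from the rest, 2 stood out, and chance gives about 1 in 20 groups. Both were Erbb4 in whole cells of vehicle replicate 27. In COP this mouse had 71.6 CPM, with the next mouse at 34.5 CPM, but this rested on 2 UMIs in 18 cells. In oligodendrocytes it had 72.0 CPM, from 25 UMIs in 274 cells, with the other 5 vehicle mice from 22.4 to 30.5 CPM.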

How the results depend on the processing

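None of the called pairs or of the uncalled pairs singled out above that were refitted changed direction under the alternatives run; the other pairs were not followed one by one. The 3 Day 1 calls became 5 without the filter on low counts, 1 with nuclei rich in 4 neuron genes left out (only astrocytes could then be fitted), and 2 to 4 with a mouse left out. The 0 calls of Day 5 nuclei became 3 with batch as a covariate (chosen after seeing the data), 1 with neuron-rich nuclei left out, and 0 to 2 with a mouse left out, which leaves 1 mouse in an arm, assumed to vary like the other group. Whole cells gave 1 to 2 calls with a mouse left out. Clusters gave 1 without the filter (Egfr, lower, in cluster 0 of the tanycytes) and 0 with any mouse left out. The day interaction gave 1 without the filter (Hbegf in astrocytes). The 13 pathway calls of Day 1 became 31 without the filter, 7 with batch, 21 with all 4 groups of nuclei fitted together, 9 with the replicate block and 4 to 12 with a mouse left out. The 12 pathway calls of whole cells were 6 to 13 with a mouse left out. The cause of these shifts was not tested. Same-numbered Day 1 mice had deviations that correlated at -0.17, -0.15 and 0.39, and other pairs at -0.52 to 0.48. With 3 mice a group these values cannot decide whether the numbers pair mice. With the replicate block the Day 1 family calls stayed at 3. For the called Hbegf values, log2 fold changes with a mouse left out were 4.58 to 5.89 in tanycytes, 5.08 to 7.43 in ependymal cells and 3.36 to 4.32 in astrocytes, and for Tgfa in whole-cell astrocytes 0.77 to 1.00. Depth limits Hbegf in nuclei, where the Day 1 vehicle groups of tanycytes, ependymal cells and astrocytes held 2, 1 and 12 UMIs, and Erbb3 in nuclei (156 UMIs) and Nrg1, Nrg2 and Nrg3 in whole cells (289, 14 and 133 UMIs), which were not tested.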

Other observations

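Other Egfr ligands of the pathway list stayed under the filter on low counts on Day 1, and Ereg and Btc were singled out after their values were seen. Ereg (epiregulin) had 45 UMIs in tanycyte nuclei of FGF1 mice and 0 in vehicle mice, with 25.1 to 92.6 CPM in the 3 FGF1 mice, which is at least 9.21-fold higher against a floor of 3 counts over the vehicle group. In ependymal nuclei it had 14 and 0 UMIs, at least 4.35-fold higher. Without the filter Ereg was called in both (edgeR FDR 3.22e-05 and 0.0141), with no share of all genes called in those fits given here. Btc (betacellulin) had 24 and 2 UMIs in tanycyte nuclei, a ratio of 7.37 with an exact 95% interval of 1.83 to 64.3, and was not called without the filter (edgeR FDR 0.0554). In whole-cell tanycytes on Day 5 Btc was tested and not called (log2 0.42, edgeR FDR 0.249). Egf had 7 and 3 UMIs in tanycyte nuclei of FGF1 and vehicle mice on Day 1, and 1 and 3 in ependymal nuclei. In astrocytes, COP and oligodendrocytes Egf had 4 and 6, 2 and 10, and 13 and 15 UMIs. Areg had 1 and 0 in tanycytes and 3 and 0 in ependymal nuclei. Btc had 0 and 1 in ependymal nuclei, 6 and 0 in astrocytes, 5 and 0 in COP and 19 and 4 in oligodendrocytes.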
